A study of Caenorhabditis elegans with 27 samples.

Results

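Worms kept for 11 days with 2.0 mM HuminFeed were compared with untreated worms of the same age. The 6 arrays are the 3 labelled with this dose and age and the 3 controls of the same experiment, out of 27 arrays in 9 groups of 3. HuminFeed (HF) is a commercial humic substance preparation, dosed here as mM of dissolved organic carbon. Whole Caenorhabditis elegans were hybridised to Affymetrix expression arrays, and each value is the log2 expression of a probe set. Besides HF at 0, 0.2 and 2.0 mM at 3 and 11 days of age, the series holds 3-day-old worms given a hydroquinone-enriched form.

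All 9 groups are strain GE24 with the temperature-sensitive allele pha-1(e2123), controls included. The control group at 11 days had 0 mM HF. The treated group had 2.0 mM HF. Worms were already on control or treated plates at 15 °C for 5 days before larvae were collected. In each experiment 15000 first-stage larvae that had passed a 10 µm filter were spread over 3 plates and kept at 25 °C, where food and fresh HF were renewed every 3 days. The design calls the 11-day-old worms adults, although the age tag of every array reads fourth-stage larvae. Cultures were triplicates, and whether these were separate populations is not stated, so that p-values measure a spread between arrays that may be technical.

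The adult hermaphrodite makes its sperm before adulthood and then only oocytes, so that its germ line holds dividing cells, meiotic cells and growing oocytes side by side. Major sperm proteins (MSPs) build the cytoskeleton of the crawling sperm and also signal to the oocyte. The intestine digests the bacterial food, secretes lysozymes and lectins, and makes the yolk that oocytes take up. Embryos homozygous for pha-1(e2123) do not develop normally at 25 °C, and humic substances are dark, redox-active organic matter that the worms swallow with their food. In whole animals, fewer cells of a type and less RNA per cell cannot be told apart.

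On each of the 6 arrays 8818 to 8909 of the 22548 probe sets exceeded log2 5. Over the tested probe sets the correlation of arrays within a group was 0.9938 to 0.9975, against 0.9813 to 0.9859 between the groups. The median SD of a probe set was 0.0821 in the controls and 0.093 in the treated group. The difference between the 5′ and 3′ signal of the actin control probe sets, a measure of RNA integrity, was -2.23 to -1.93 in controls and -2.07 to -1.82 with HF. These ranges overlapped. The gene pha-1 itself lay between 2.32 and 2.37 on all 6 arrays, at the floor of the scale, and was not tested.

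A probe set was tested where log2 was over 5 on at least 3 of the 6 arrays, which left 8918. Of these, limma called 2624, or 29.4%, at a Benjamini-Hochberg adjusted p under 0.05. With HF 1343 rose (15.1%) and 1281 fell (14.4%), and 44 rose and 33 fell by at least 2-fold (0.863% together). Changes were thus many and mostly under 2-fold. With each array centred on its median, 1165 rose and 1562 fell, so the balance of rises and falls depended on scaling. The count was 1360 without control 2, 1330 without control 3 and 1732 without treated array 3. All treated arrays lay beyond all controls for 46.8% of the tested probe sets.

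**Figure D1:**
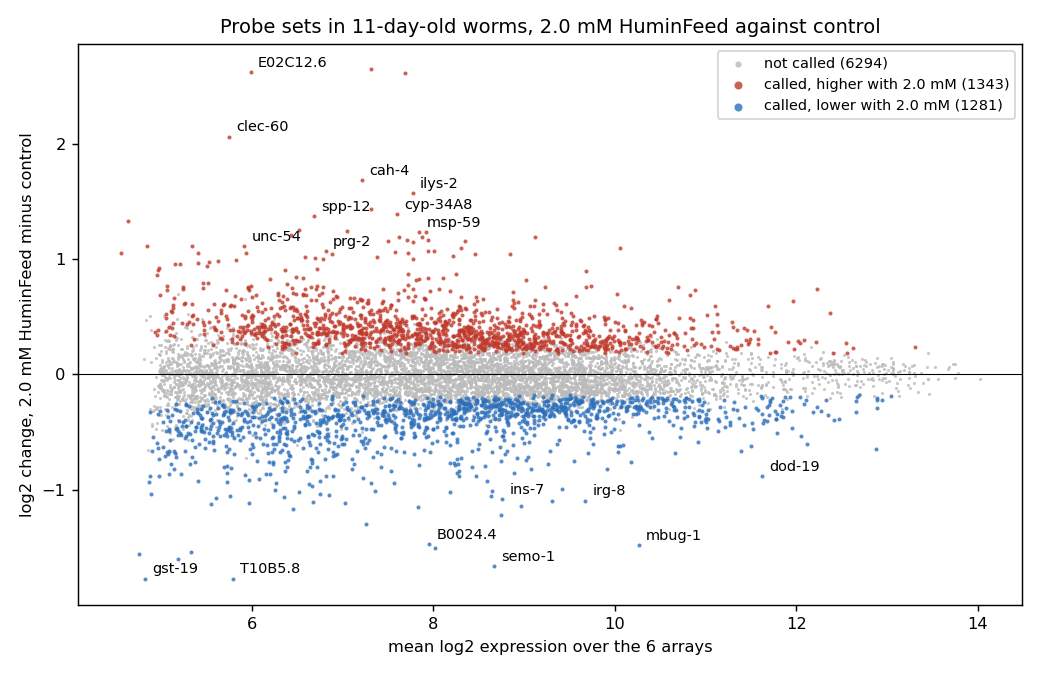
Each point is 1 of 8918 tested probe sets, with its mean log2 expression over the 6 arrays on the x axis and the log2 change with 2.0 mM HF on the y axis. Red points (1343) were called higher, blue points (1281) lower and grey points were not called. Most called changes lie within 1 log2 unit of 0, and the named genes mark the extremes.

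The largest fitted rise of a named gene was that of E02C12.6, whose function is not known here. In controls it lay at 4.79, 4.64 and 4.61, and with HF at 7.36, 7.55 and 6.99. The groups were far apart, with a fitted rise of 2.62 ± 0.14 (log2 change ± SE, n = 3 per group, limma adjusted p = 8.1e-05). clec-60, which encodes a C-type lectin-like protein induced by several bacterial pathogens, had control values of 4.79, 4.76 and 4.61. With HF it read 6.73, 6.85 and 6.75, a rise of 2.06 ± 0.07 (adjusted p = 1.1e-05). The controls of both genes lay under log2 5, where the scale flattens, so both passed the filter only through the treated group. The sizes of these rises, and their rank, are less certain than their direction.

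Other large rises were in a carbonic anhydrase, a lysozyme and a saposin-like peptide. The carbonic anhydrase gene cah-4, whose product interconverts carbon dioxide and bicarbonate, stood at 6.49, 6.26 and 6.36 in controls and at 7.92, 8.22 and 8.02 with HF (change 1.68 ± 0.10, adjusted p = 9.9e-05). The invertebrate-type lysozyme gene ilys-2 stood at 6.71, 7.20 and 7.06 against 8.51, 8.65 and 8.52 (change 1.57 ± 0.12, adjusted p = 0.00034). In both genes the lowest treated array lay more than 1 log2 unit over the highest control. The saposin-like gene spp-12 rose by 1.37 ± 0.14 and the cytochrome P450 gene cyp-34A8 by 1.39 ± 0.11. F42A10.7 rose by 1.43, F58B4.5 by 1.24 and spig-20 by 1.19. The remaining 6 of the 15 largest rises were MSP genes, from 1.16 for msp-65 to 1.23 for msp-59.

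Probe sets that match no gene or several genes are not named. They held 11 of the 44 rises and 2 of the 33 falls of at least 2-fold. A pair of them, each matched to 2 genes, rose by 2.64 ± 0.09 and 2.61 ± 0.09 (adjusted p = 1.1e-05 for both).

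The largest falls included a glutathione S-transferase, an enzyme of sulfur metabolism and an insulin-like peptide. T10B5.8 read 6.39, 6.75 and 6.90 in controls against 5.21, 4.93 and 4.59 with HF, a change of -1.77 ± 0.17 (adjusted p = 0.00088). gst-19, a glutathione S-transferase gene, read 5.74, 5.75 and 5.63 against values between 3.77 and 4.04, a change of -1.77 ± 0.09 (adjusted p = 7.6e-05). Its treated arrays lay under log2 5, so its size is uncertain too. mbug-1 fell from 11.04, 11.02 and 10.95 to 9.46, 9.68 and 9.43 (change -1.48 ± 0.08, adjusted p = 9e-05). B0024.4 fell by 1.47 and K08D8.6 by 1.30 on the log2 scale. irg-8, named for its response to infection, read 10.22 on each control array and 9.16, 9.16 and 9.08 with HF, a change of -1.09 ± 0.06 (adjusted p = 8.1e-05). The insulin-like gene ins-7, which in C. elegans acts through the receptor DAF-2, fell from 9.43, 9.31 and 9.14 to 8.26, 8.22 and 8.18. Its change was -1.08 ± 0.08 (adjusted p = 0.00034), and the groups did not overlap.

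**Figure D2:**
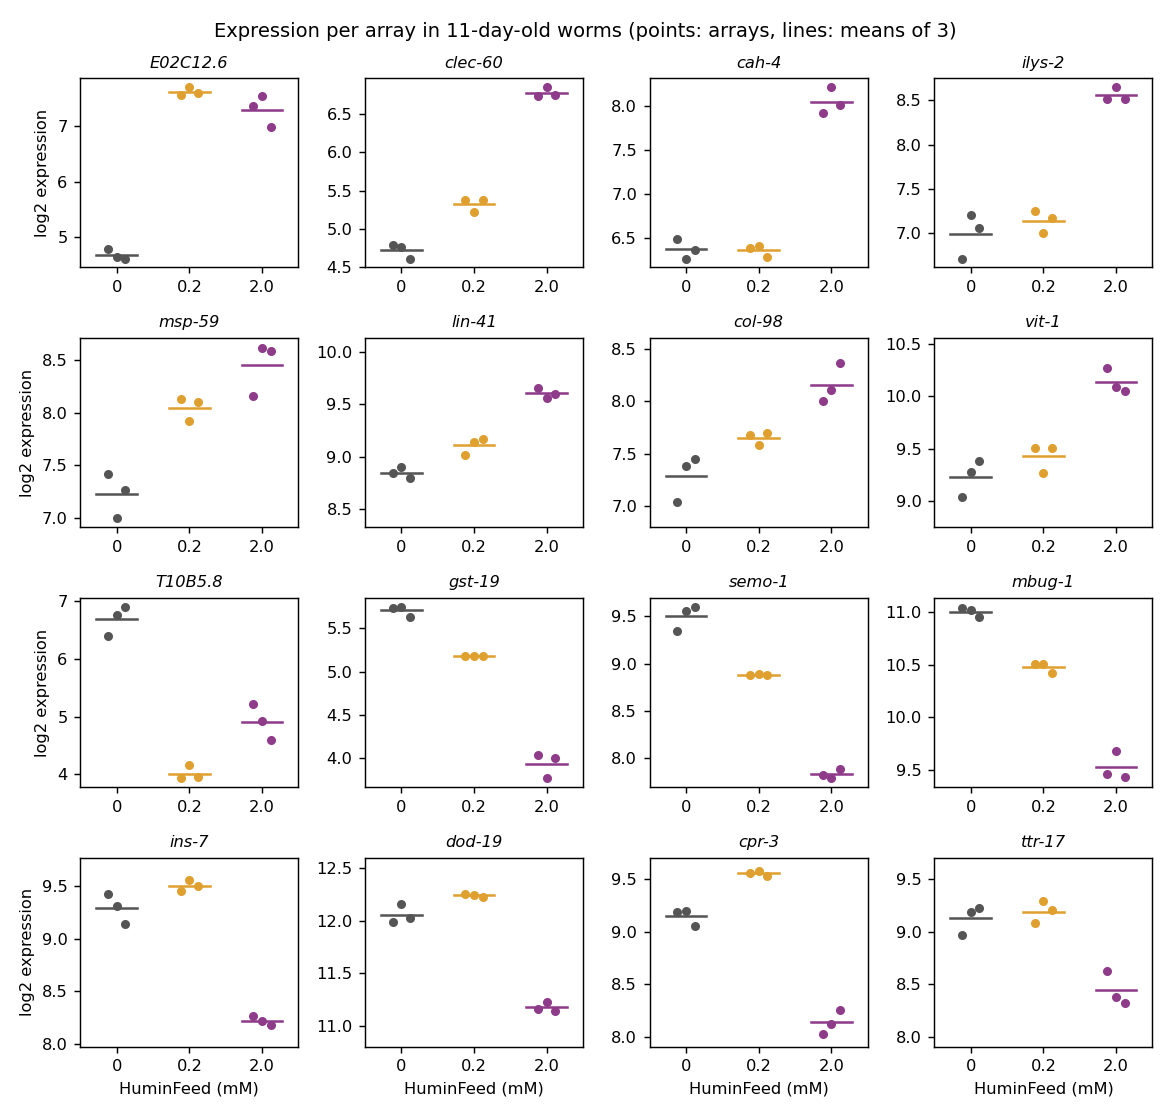
Log2 expression of 16 genes in 11-day-old worms is plotted against the dose of HF in mM, with 1 point per array and a line at each mean of 3. The upper 8 genes were higher with 2.0 mM than in controls and the lower 8 were lower, with no overlap of these groups, whereas E02C12.6 and T10B5.8 were further from the controls at 0.2 mM than at 2.0 mM.

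Many germ line transcripts were higher with HF. Of 56 tested genes of a list for oocytes and the germ line, out of 58 on the array, 34 rose (60.7%) and none fell, and the median log2 change was 0.30. Over all 6748 genes tested, each with 1 probe set, 14.6% rose, 15.6% fell and the median was -0.03. lin-41, a regulator of oocyte growth, read 8.85, 8.90 and 8.80 in controls and 9.66, 9.56 and 9.60 with HF (change 0.75 ± 0.06, adjusted p = 0.00037). rec-8, a meiotic cohesin gene, rose by 0.74 ± 0.06, and glp-1, the Notch receptor that keeps germ line stem cells dividing, by 0.61 ± 0.07. cpb-1, a homologue of an RNA-binding protein of the cytoplasmic polyadenylation complex that is needed for sperm formation, rose by 0.72 ± 0.13. Genes of the synaptonemal complex and its axis were mixed: htp-3 rose by 0.35, while syp-1 at 0.04, syp-2 at -0.07, htp-1 at -0.11 and htp-2 at -0.21 were not called. cey-2 stood at 12.29, 12.33 and 12.26 against 12.37, 12.42 and 12.39 and was not called (change 0.10, adjusted p = 0.20). The count of rises was 21 without control 3 and 20 with no filter on low values.

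Argonaute genes, whose proteins carry small RNAs, were higher in several cases. Of 15 tested 8 rose (53.3%) and none fell, with a median of 0.26. prg-2, of the PIWI class, read 6.04, 6.29 and 6.51 in controls and 7.48, 7.20 and 7.37 with HF (change 1.07 ± 0.13, adjusted p = 0.0016). ppw-2 read 7.80, 7.85 and 7.80 against 8.72, 8.59 and 8.75 (change 0.87 ± 0.07, adjusted p = 0.00034). wago-4, which takes part in inheritance of RNA silencing, rose by 0.63 ± 0.06 and the nuclear Argonaute gene hrde-1 by 0.49 ± 0.09, although a second probe set of hrde-1 showed only 0.04. csr-1 rose by 0.40, prg-1 by 0.26, wago-1 by 0.25 and vsra-1 by 0.20. The microRNA Argonaute genes alg-1 and alg-2 at 0.07 and -0.14, and rde-1 at -0.06, which binds primary small interfering RNAs, were not called. The count of rises was 5 without control 2, without treated array 2 or 3, after centring, or with no filter.

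Genes of eggshell and cell division moved less. Of 16 tested eggshell and egg activation genes 6 rose and 1 fell (median 0.16), and only 2 or 3 rose without any 1 array other than treated array 2. perm-1, needed for the permeability barrier of the eggshell, rose by 0.49 ± 0.07, and the caveolin gene cav-1 fell by 0.38 ± 0.06 on the log2 scale. Among 68 replication and cell cycle genes 13 rose (19.1%) and none fell (median 0.10), or 4 to 8 rose without control 2 or 3 or any 1 treated array. This share is close to the 14.6% of all genes. pole-1, which encodes a DNA polymerase epsilon subunit, rose by 0.57 ± 0.08. None of 20 histone genes rose and 4 fell, among them his-71 from 5.90 ± 0.02 to 5.25 ± 0.12 (SD, n = 3).

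The tested MSP genes all rose. Of 23 on the array 19 were tested, of which 2 were over log2 5 on no control array and so could pass the filter only through the treated group. These 19 rose by 0.55 to 1.23 with a median of 1.05. msp-59 read 7.42, 7.0 and 7.26 in controls and 8.16, 8.62 and 8.59 with HF (change 1.23 ± 0.15, adjusted p = 0.0017). msp-38 read 5.88, 5.71 and 5.90 against 6.94, 7.21 and 6.95 (change 1.21 ± 0.09, adjusted p = 0.00034). In both, treated array 1 was the lowest of its group and still lay over every control. MSP genes have near-identical copies whose probe sets share signal, so these are not 19 independent measurements.

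Other sperm genes were mostly at the floor of the scale: of 37 on the array only 6 were tested, and 31 lay under log2 5 on all controls. Of the 6, 5 rose and ssp-37 fell by 0.42 on the log2 scale, or 2 or 3 rose without control 2 or 3 or treated array 2 or 3. spe-44, a transcription factor that drives sperm gene expression, read 6.71, 6.59 and 6.70 against 7.18, 7.13 and 7.25 (change 0.52 ± 0.06, adjusted p = 0.002). nspd-7, a sperm-enriched gene at 4.82 ± 0.26 in controls, rose by 0.66 ± 0.21 with an adjusted p of 0.05, and its groups touched.

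The same values were also summed on the linear scale, where the brightest genes weigh most. The 23 MSP genes summed to between 1760 and 2060 in controls and between 3510 and 4390 with HF, and the 58 oocyte and germ line genes to between 71900 and 73100 against between 84000 and 86000. Sums of the 36 intestinal genes lay between 48700 and 49700 in controls and between 45400 and 47500 with HF, without overlap. The median log2 change of the tested intestinal genes was nevertheless 0.03. Sums for body wall muscle (41 genes, 19200 to 20400 against 18600 to 20000.0) and neurons (51 genes, 7170 to 7430 against 7120 to 7240) overlapped. The part of a shift in tissue proportions in the changes of germ line genes was not tested.

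Of 5 yolk protein genes only vit-1 rose. It read 9.04, 9.28 and 9.39 in controls and 10.27, 10.09 and 10.05 with HF (change 0.90 ± 0.10, adjusted p = 0.0016). vit-4 and vit-5, at control means of 13.71 and 13.68, and vit-6, at 12.91, differed by 0.09 each and were not called, nor was vit-2 at 0.00. Levels of different probe sets are not on a common scale. vit-4 has 3 probe sets, of which the dimmest, at 7.69 in controls, rose by 0.83 ± 0.12 (adjusted p = 0.0034).

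**Figure D3:**
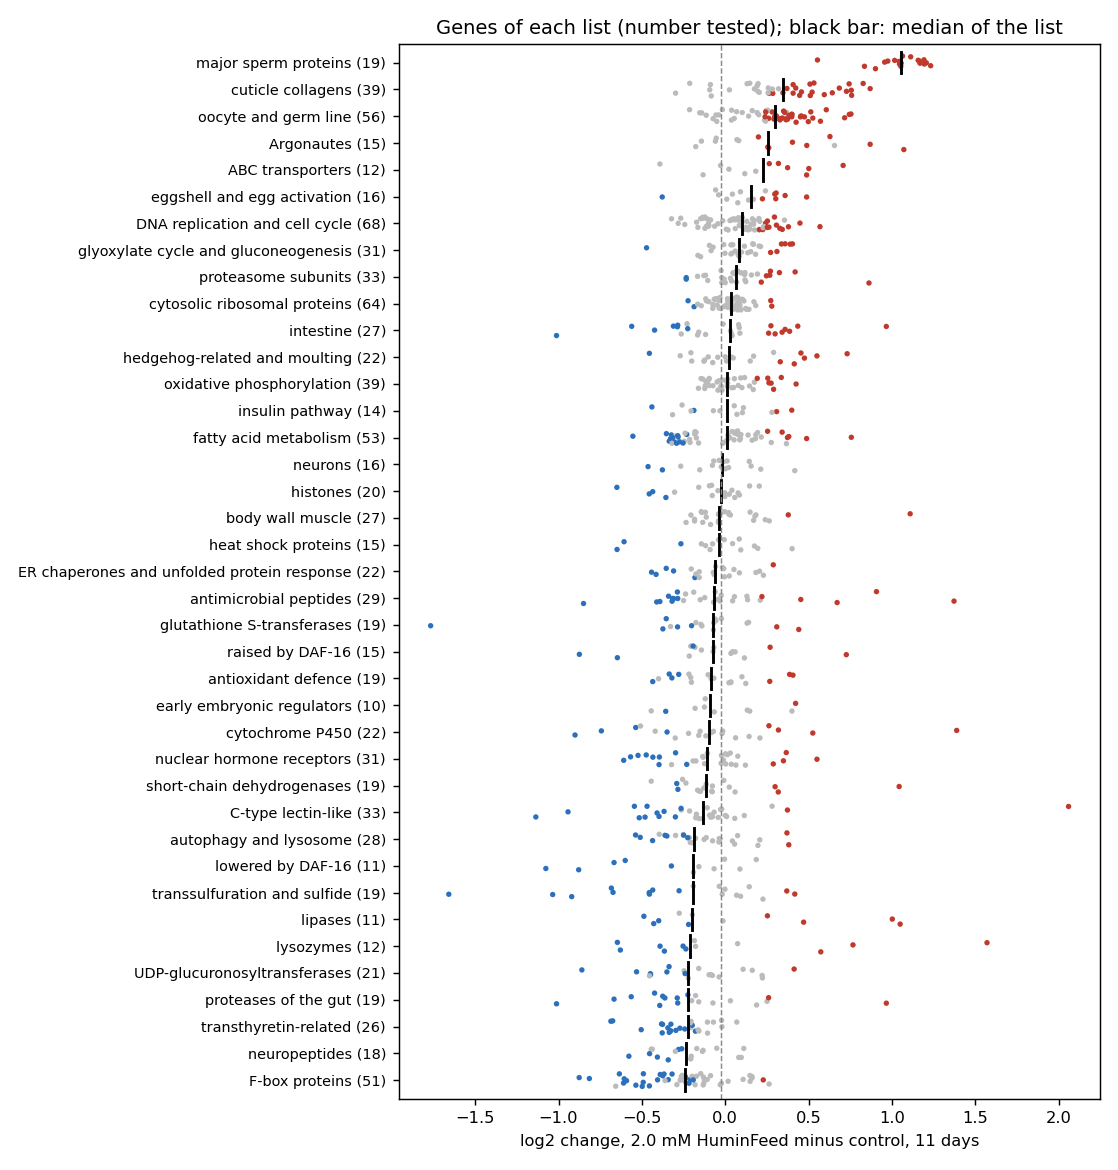
Each point is a tested gene of a list of at least 10 tested genes, placed by its log2 change with 2.0 mM HF at 11 days, in red if called higher, blue if called lower and grey if not called. Black bars are list medians, the dashed line is the median of all 6748 genes (-0.03), and MSPs stand alone at the top with a median of 1.05.

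Cuticle collagen genes were higher with HF as well. Of 147 on the array 39 were tested, and 22 of these rose (56.4%) and none fell (median 0.35). Of the 147, 107 lay under log2 5 on all controls and could not be judged. col-98 read 7.04, 7.38 and 7.45 in controls and 8.0, 8.11 and 8.36 with HF (change 0.87 ± 0.13, adjusted p = 0.0037), and col-103 rose by 0.83 ± 0.07. col-160 and col-159 rose by 0.76 ± 0.09 each. The collagen gene sqt-3 read 12.08, 11.65 and 12.06 against 12.12, 11.95 and 12.17 and was not called (change 0.15, adjusted p = 0.39). The count of rises stayed between 17 and 29 over the alternatives run for lists, which did not include a replicate block. Of 22 hedgehog-related and moulting genes 6 rose and 1 fell, and nhr-23, a nuclear receptor that times moults in larvae, rose by 0.55 ± 0.09.

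Few body wall muscle genes were called. Of 27 tested 2 rose and none fell (median -0.04). unc-54, the myosin heavy chain gene of body wall muscle, read 5.29, 5.27 and 5.53 in controls and 6.47, 6.44 and 6.51 with HF (change 1.11 ± 0.08, adjusted p = 0.00034). The troponin T gene tnt-2 rose by 0.38. The actin gene act-3, which shares body wall muscle with unc-54, read 11.73, 11.91 and 11.87 against 11.85, 11.68 and 11.86 and was not called (change -0.04, adjusted p = 0.71).

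Genes of digestion were lower. Of 19 tested proteases of the gut 10 fell (52.6%) and 2 rose (median -0.22), or 6 fell with no filter. cpr-3, a cathepsin B-like protease gene, read 9.19, 9.20 and 9.06 in controls and 8.03, 8.12 and 8.26 with HF (change -1.01 ± 0.08, adjusted p = 0.00034). The aspartyl protease gene asp-17 fell from 9.67 ± 0.03 to 9.11 ± 0.06 (SD, n = 3). cpr-5 went the other way, from 4.93 ± 0.18 to 5.89 ± 0.22 (SD, n = 3, change 0.97, adjusted p = 0.0026). asp-1 was not called and stood at 13.14, 13.12 and 13.11 against 13.18, 13.12 and 13.17. As a whole the 27 tested intestinal genes were split, with 8 up, 7 down and a median of 0.03. The rises were 3 to 5 without control 2 or 3 or treated array 2 or 3, and the falls 4 without control 2.

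Immune effectors were divided within families. Among 12 tested lysozyme genes 3 rose and 6 fell. ilys-2 (above), ilys-3 by 0.77 ± 0.08 and lys-10 by 0.57 rose. lys-7, which helps worms resist bacterial infection and read 13.21, 13.24 and 13.18 in controls, fell to 12.45, 12.58 and 12.65 (change -0.65 ± 0.07, adjusted p = 0.0011). lys-1 fell by 0.39, lys-4 by 0.37, lys-6 by 0.25, lys-8 by 0.24 and lys-3 by 0.63 on the log2 scale, although without control 2 or control 3 only 2 falls were called. lys-3, at a mean of 4.71 with HF, was over log2 5 on no treated array. It passed the filter only through the controls, so the size of its fall is uncertain. Of 33 tested C-type lectin-like genes, out of 220 on the array, 11 fell (33.3%) and 2 rose (median -0.14), with clec-174 at -1.14 ± 0.09 and clec-41 at -0.94 ± 0.13 against clec-60 at 2.06. Of 29 antimicrobial peptide genes 5 rose, led by spp-12 and fip-5 (0.91 ± 0.11), and 9 fell, led by cnc-6 (-0.85 ± 0.16), or 5 fell without control 2 or control 3.

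In a list for sulfur amino acid and sulfide metabolism 9 of 19 tested genes fell (47.4%) and 2 rose (median -0.19). The list also includes rhy-1 and phy-2, which are not enzymes of this metabolism. semo-1, which encodes a methanethiol oxidase, an enzyme that releases hydrogen sulfide, read 9.34, 9.55 and 9.60 in controls and 7.83, 7.79 and 7.89 with HF (change -1.66 ± 0.08, adjusted p = 7.6e-05). rhy-1, a membrane protein that restrains the hypoxia factor HIF-1, read 7.21, 7.41 and 7.19 against 6.23, 6.27 and 6.21 (change -1.04 ± 0.07, adjusted p = 0.00034). mpst-3, a mercaptopyruvate sulfurtransferase gene, read 8.98, 9.07 and 9.09 against 8.07, 8.16 and 8.16 (change -0.92 ± 0.06, adjusted p = 0.00032). None of these 3 genes overlapped between the groups, and in each the treated arrays lay close together.

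The other members of the list are given here in full. cth-1, a cystathionine gamma-lyase gene that makes cysteine, fell by 0.46, and sams-1, which makes the methyl donor S-adenosylmethionine, fell by 0.28 on the log2 scale. Among enzymes that oxidise cysteine and sulfide, cdo-1 (cysteine dioxygenase) fell from 10.05, 10.01 and 10.07 to 9.36, 9.43 and 9.29, ethe-1 (persulfide dioxygenase) fell by 0.67 and sqrd-1 (sulfide quinone oxidoreductase) by 0.46. cysl-3 fell by 0.44. Against these, metr-1 (methionine synthase) rose by 0.42 and cysl-2, an enzyme of cyanide and sulfide handling, by 0.37. suox-1 (sulfite oxidase) at 0.23, mpst-1 at 0.14, ahcy-1 at 0.09, mel-32 at 0.07, phy-2 at 0.00, sams-4 at -0.02, cth-2 at -0.04 and mtrr-1 at -0.19 were not called. The members thus differed in direction.

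**Figure D4:**
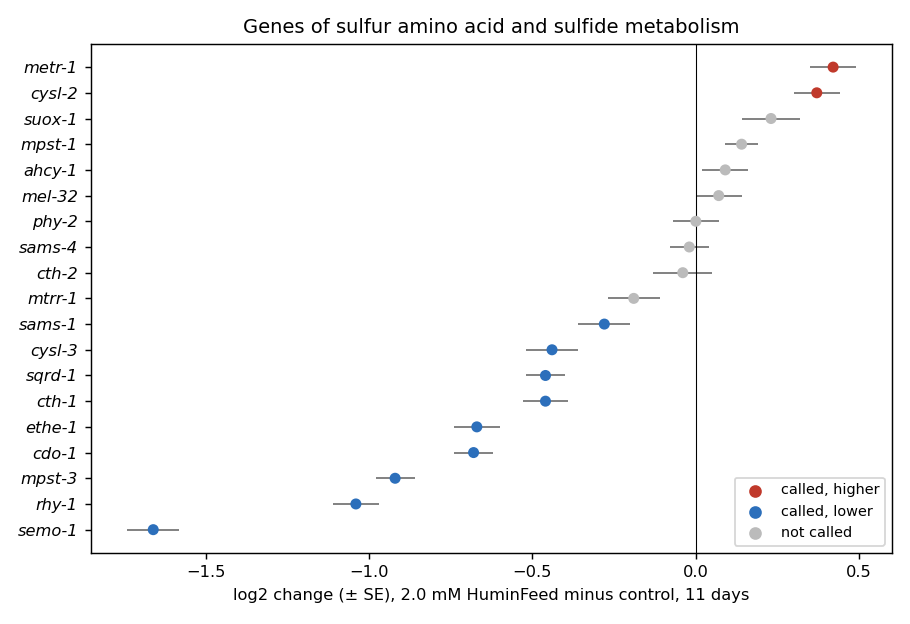
The log2 change with 2.0 mM HF at 11 days (x axis, points, with bars of 1 SE, n = 3 per group) is shown for the 19 tested genes of the list for sulfur amino acid and sulfide metabolism. The list includes rhy-1 and phy-2, which are not enzymes of it. 9 genes in blue fell, from sams-1 at -0.28 to semo-1 at -1.66, and 2 in red rose.

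Transthyretin-related genes, a large nematode family of secreted proteins, fell in 15 of 26 cases (57.7%) and none rose (median -0.23), or 7 fell without control 2 and 6 without control 3. Of the 26, 1 was over log2 5 on no treated array and so passed the filter only through the controls. ttr-17 read 8.97, 9.19 and 9.23 in controls and 8.63, 8.38 and 8.32 with HF (change -0.69 ± 0.10, adjusted p = 0.0037). ttr-51 fell from 12.69, 12.63 and 12.67 to 12.42, 12.24 and 12.19, while ttr-16 at 12.12, 12.13 and 12.12 against 12.02, 12.16 and 12.13 was not called. Of 310 F-box genes, which choose proteins for degradation, 51 were tested, and 21 fell (41.2%) and 1 rose (median -0.24), or 12 fell without control 2 or control 3 and 10 with no filter. Of the 51, 1 likewise passed the filter only through the controls. fbxc-58 read 7.27, 7.36 and 7.36 against 6.27, 6.51 and 6.57 (change -0.88 ± 0.09, adjusted p = 0.00094).

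Detoxification genes did not rise together, set against 14.6% up and 15.6% down over all genes. Of 22 cytochrome P450 genes 4 rose and 4 fell (18.2% each, near the shares of all genes). Without control 2 or 3 or treated array 2 or 3 only 2 rose. The ends were cyp-34A8 at 1.39 and cyp-14A5 at -0.90. Of the 22, 1 was over log2 5 on no control array. Of 19 glutathione S-transferase genes 2 rose (10.5%) and 5 fell (26.3%), and 0 to 3 of them fell without any 1 array other than control 1. Among these, gst-4 read 7.49, 7.80 and 7.73 in controls and 7.20, 7.45 and 7.32 with HF (change -0.35 ± 0.10, limma adjusted p = 0.035). Its call was lost without control 2 or 3 or treated array 1 or 3. Of 21 UDP-glucuronosyltransferase genes 7 fell (33.3%) and 1 rose (median -0.22), led by ugt-29 at -0.86 ± 0.11. ABC transporter genes, which export compounds from cells, moved up instead: of 12 tested 6 rose and none fell (median 0.22), or 3 rose without control 2 or control 3. mrp-7 rose by 0.71 ± 0.13, and hmt-1, which protects worms from heavy metals, by 0.49 ± 0.06.

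Rises of stress genes were near or under the 14.6% of all genes, and falls were somewhat over the 15.6% of all genes. Of 19 antioxidant genes 3 rose (15.8%) and 4 fell (21.1%), or 1 or 2 fell without any 1 control or treated array 2. The ferritin genes ftn-1 and ftn-2 moved apart, from 8.48 ± 0.02 to 8.86 ± 0.06 and from 11.49 ± 0.11 to 11.06 ± 0.08 (SD, n = 3). Of 15 heat shock genes none rose and 3 fell, among them hsp-17 by 0.61 on the log2 scale, or 1 fell without control 3. Of 22 chaperone and unfolded protein response genes of the endoplasmic reticulum 1 rose (4.55%) and 5 fell (22.7%), or 2 or 3 fell without control 1 or 3 or treated array 2 or 3. Of 28 autophagy and lysosome genes 7 fell (25.0%) and 2 rose (7.14%, median -0.19), or 4 fell without control 3. atg-16.2 fell by 0.51, and lgg-1 and sqst-1, which were chosen after their values were seen and encode the coat protein and a cargo receptor of autophagosomes, fell by 0.35 and 0.36. The proton pump subunit genes vha-12 and vha-13 rose by 0.38 and 0.37.

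Of 53 genes of fatty acid metabolism 13 fell (24.5%) and 6 rose (11.3%, median 0.01), or 5 to 8 fell without any 1 control or without treated array 2. pod-2 (acetyl-CoA carboxylase), the entry to fatty acid synthesis, rose from 6.47, 6.23 and 6.13 to 7.12, 6.96 and 7.03 (change 0.76 ± 0.10, adjusted p = 0.002), and fasn-1 (fatty acid synthase) rose by 0.38, which was not called without control 2. The desaturase genes fat-1, fat-2, fat-3 and fat-7, chosen after their values were seen, fell by 0.35, 0.32, 0.34 and 0.27, whereas fat-4 at -0.16, fat-5 at 0.06 and fat-6 at -0.18 were not called. Of 11 lipase genes 4 rose, 1 of them over log2 5 on no control array, and 4 fell. Without treated array 1 or 2 only 2 rose, and without control 3 only 2 fell. The fasting-induced lipase gene fil-1 rose from 6.43, 6.22 and 6.20 to 7.28, 7.24 and 7.34 (adjusted p = 0.00034).

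Rises of energy and proteasome genes were near or somewhat over the 14.6% of all genes, and falls were fewer than the 15.6% of all genes. Of 39 genes of oxidative phosphorylation 7 rose (17.9%) and none fell. Of 31 of the glyoxylate cycle and sugar metabolism 6 rose (19.4%) and 1 fell (3.23%), and of 33 proteasome genes 7 rose (21.2%) and 2 fell (6.06%). Of the 33, 1 was over log2 5 on no control array. The rises of oxidative phosphorylation genes were 1 to 4 without control 2 or 3 or treated array 2 or 3, and those of proteasome genes 1 to 4 without any 1 array other than control 1. Of 64 cytosolic ribosomal protein genes 60 were not called (median 0.04). Only 3.12% rose and 3.12% fell, under the shares of all genes.

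Some neuropeptide genes were lower, whereas other neuronal and insulin pathway genes did not fall more often than the 15.6% of all genes. Of 18 neuropeptide genes 6 fell (33.3%) and none rose (median -0.23). nlp-40, a peptide that the intestine releases to time defecation, read 10.81, 10.73 and 10.87 in controls and 10.36, 10.42 and 10.41 with HF (change -0.41 ± 0.06, adjusted p = 0.0038), and nlp-39 fell by 0.58 ± 0.07. Of 16 other neuronal genes 2 fell (12.5%) and none rose (median -0.02). These were the syntaxin gene unc-64, by 0.46, and the peptide-processing gene sbt-1, by 0.38. The call of sbt-1 was lost without control 1 or 3 or treated array 1 or 3, and the synaptobrevin gene snb-1 was not called at -0.02. Of 14 insulin pathway genes 2 rose and 2 fell (14.3% each), and 0 or 1 rose whichever array was left out. daf-16, the transcription factor that the pathway restrains, read 7.70, 7.61 and 7.84 against 8.1, 8.06 and 7.91 (change 0.31 ± 0.08, adjusted p = 0.028), and 1 of its other 2 probe sets was not called. Its call was lost without control 1 or 2 or treated array 1 or 2.

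Genes known to be lowered by DAF-16 fell in 5 of 11 cases (45.5%) and none rose. These were ins-7, dod-19, cpr-2, dod-23 and acdh-1. dod-19 read 11.99, 12.16 and 12.03 in controls and 11.16, 11.23 and 11.14 with HF (change -0.88 ± 0.07, adjusted p = 0.00034). Genes known to be raised by DAF-16 did not follow as a group, with 2 of 15 up and 3 down. asah-1, an acid ceramidase gene, rose by 0.73 ± 0.07, dod-3 fell by 0.88 ± 0.07 on the log2 scale, and sod-3, its classical target, at -0.07 was not called. The vit-2 and vit-5 genes also stand in the lowered list and were not called.

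Set against 0.2 mM at the same age, the higher dose differed widely. Of 8976 tested probe sets 3595 were called (40.1%), with 1603 higher at 2.0 mM (17.9%) and 1992 lower (22.2%), or 1981 and 1726 after quantile normalization. All arrays of 1 dose lay beyond all of the other for 54.1%. Against control, 475 of 8982 probe sets were called with 0.2 mM (5.29%), of which 380 rose (4.23%) and 95 fell (1.06%), and the groups did not overlap for 25.5%. Both doses share the control, so their responses are not compared by overlap. Of the 15 largest rises against control, 11 were also higher than at 0.2 mM, 3 were not called and F58B4.5 was lower (-0.30 ± 0.07, adjusted p = 0.015). Of the 15 largest falls 14 were lower than at 0.2 mM, and T10B5.8, which lay under log2 5 at both doses on most arrays, was not tested. Both sets were chosen by the same 2.0 mM arrays, so these counts are partly fixed by the choice.

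Genes fell into several patterns over the doses. cah-4 stood at 6.38, 6.41 and 6.28 with 0.2 mM, level with its controls, and was 1.70 ± 0.08 higher at 2.0 mM (adjusted p = 2.9e-05). E02C12.6 stood at 7.57, 7.71 and 7.60 with 0.2 mM, and the difference of -0.33 ± 0.13 at 2.0 mM was not called (adjusted p = 0.084). Of 20 tested MSP genes 5 were higher at 2.0 than at 0.2 mM and 15 were not called (median 0.23). The higher dose gave higher values in 40 of 56 oocyte and germ line genes and lower values in none (median 0.26), and transthyretin-related genes lower in 21 of 26 (median -0.36).

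Some genes lay on opposite sides of the control at the 2 doses. ilys-3 read 8.50, 8.39 and 8.40 with 0.2 mM, under its controls of 9.33, 9.44 and 9.30, and 10.02, 10.13 and 10.22 with 2.0 mM, a difference between doses of 1.69 ± 0.07 (adjusted p = 2.4e-05). For dhs-26, of the short-chain dehydrogenase family, the arrays read 5.31, 5.51 and 5.63 with 0.2 mM against 7.58, 7.42 and 7.40 in controls and 7.70, 7.85 and 7.75 with 2.0 mM. It was 2.28 ± 0.09 higher at the higher dose (adjusted p = 2.4e-05). Its rise over control at 2.0 mM was only 0.30 (limma adjusted p = 0.022), and this call was lost without control 2 or 3 or treated array 2 or 3. Conversely irg-8 stood at 10.61, 10.77 and 10.77 with 0.2 mM, over its controls, and was 1.59 ± 0.06 lower at 2.0 mM (log2 difference -1.59, adjusted p = 2.4e-05).

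The response to 2.0 mM at 11 days was also tested against that at 3 days. The ages have their own controls, and only differences within an age enter, since whether the arrays of both ages were normalized together is not given in the sources used here. At 3 days 6653 of 9297 probe sets were called (71.6%), with 32.5% up and 39.1% down, and the groups did not overlap for 75.2%. The response differed for 6879 of 9927 probe sets (69.3%), with 3660 higher at 11 days (36.9%) and 3219 lower (32.4%), or 2891 and 3930 after centring. Across these probe sets, which are not independent, the changes at 11 and at 3 days had r = -0.24 (Spearman rho -0.357), and their SD was 0.285 at 11 days and 0.522 at 3 days. Changes at 11 days were therefore smaller and tended to the other sign.

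Germ line genes differed in the sign of their response. All 23 MSP genes responded higher at 11 days, with a median change of 1.04 at 11 days and -1.18 at 3 days. msp-40 changed from 12.06 to 10.73 (group means) at 3 days, and from 6.08 to 7.1 at 11 days, a difference in response of 2.35 ± 0.14 (adjusted p = 1.8e-07). Of 56 oocyte and germ line genes 47 responded higher at 11 days and 3 lower (medians 0.30 and -0.35), and so did 58 of 68 cell cycle genes and 26 of 33 proteasome genes (median -0.40 at 3 days).

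Gut, neuropeptide and transthyretin-related genes went the other way. Of 31 transthyretin-related genes 26 responded lower at 11 days and none higher (medians -0.21 and 0.36). Of 21 proteases of the gut 17 responded lower (medians -0.20 and 0.37), and of 24 neuropeptide genes 20 (medians -0.21 and 0.51). Body wall muscle genes, with 18 of 30 lower, had a median of -0.03 at 11 days against 0.45 at 3 days. Of 64 cuticle collagens 21 responded higher and 2 lower, with medians of 0.20 and 0.09. The higher share was close to the 36.9% of all probe sets, and the lower share was under their 32.4%. semo-1 was not called at 3 days, with means of 9.43 in both groups, and its response differed by -1.66 ± 0.11 (adjusted p = 3.4e-07).

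**Figure D5:**
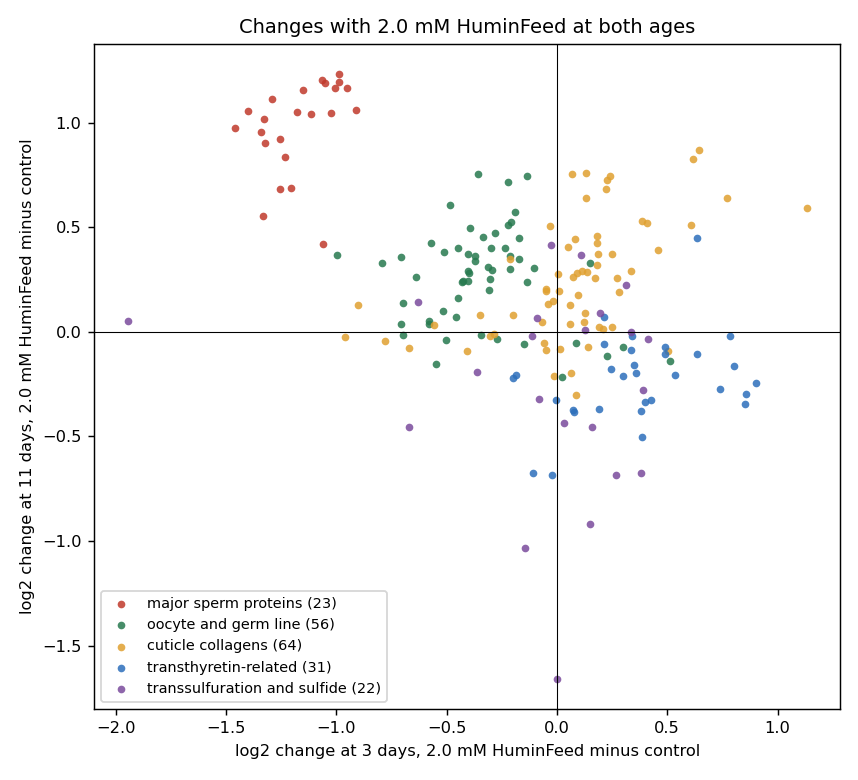
Each point is a gene of 1 of 5 lists, with its log2 change with 2.0 mM HF at 3 days on the x axis and at 11 days on the y axis. The 23 MSP genes lie at the upper left, lower at 3 days and higher at 11 days, and transthyretin-related genes lie mostly at the lower right.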

How the data were processed

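Whole-worm RNA (200 ng) was amplified and labelled with biotin, per the labels. The deposited values are log2 expression per probe set, made with GCRMA per the submitters' processing notes; its version is not given in the sources used here. GCRMA flattens values near its floor, which makes the size of changes in dim genes uncertain. No further normalization was applied. The array's 77 control probe sets, of 22625 in all, did not enter. Every column was mapped to a sample (0 unmapped).

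Each comparison was fitted by itself with limma 3.58.1 (R 4.3.3, lmFit and eBayes, 2-sided), on probe sets over log2 5 on at least 3 of the arrays fitted, with Benjamini-Hochberg adjustment over all of them. Of the 8918 probe sets tested, 8532 matched 1 gene symbol of the platform annotation, 267 several and 119 none. A gene with several probe sets is represented in its list by the one whose mean is highest; 24 list entries had no match. Of 1576 genes with more than 1 tested probe set the calls differed in 449, and in none were probe sets called in both directions. Figures were drawn with Python 3.11.15.

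The members, the 47 gene lists and the rule for named genes were chosen with earlier results of these data known. The rule takes the 15 largest changes in each direction, if called, matched to 1 symbol and without overlap of the groups, up to 4 called genes and 1 uncalled gene per list of at least 5, the yolk genes and pha-1, and the 5 largest differences each way between ages and doses. For the sulfur, Argonaute and lysozyme lists, and for some members of other lists, further genes were named after their values were seen.

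No pairing of samples by replicate number is stated. Deviations of same-numbered arrays from their group means had r = -0.323, -0.0312 and -0.147. With means of 3 arrays these values depend on each other and cannot settle whether arrays were paired. The procedure was tested on simulated data for the comparison with control at 11 days (8918 probe sets): of 100 true changes of 0.5 it recovered 70, of 100 changes of 1 it recovered 97, with 3 false calls among 170. The simulated noise was independent between probe sets, and far fewer probe sets changed than were called in the data. Deviations shared across an array were not simulated, so the number of false calls does not cover them. Alternatives were other filters, centring, quantile normalization, a variance trend, a replicate block, fits of all 9 or 27 arrays, and leaving out each array. Leaving out arrays was added for list counts after seeing the data. The replicate block, the variance trend, the fit of all 9 arrays and a filter over all 27 arrays were not run for list counts. With 3 arrays per group, their number limits precision. No sequences or coordinates were used here.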

Additional observations from a re-analysis of the deposited data

Results flagged for a closer look

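10 genes were set apart because their response to 2.0 mM HF differed most between the ages, as tested by the interaction in limma (change at 11 days minus change at 3 days, log2). 5 of them responded lower at 11 days. The difference was -2.75 for lipl-1, a lysosomal lipase gene that went from 2.40 to 5.61 at 3 days but from 7.17 to 7.64 at 11 days (group means). It was -2.72 for C40H1.7, -2.46 for the long noncoding RNA gene tts-1, -2.44 for ZK1290.5 and -2.43 for ilys-3. The other 5 responded higher at 11 days. dod-3 differed by 2.43, from 7.90 to 4.60 at 3 days and from 8.73 to 7.85 at 11 days. The MSP genes msp-40, msp-45, msp-64 and msp-3 differed by 2.35, 2.40, 2.44 and 2.46, and all 4 fell at 3 days and rose at 11 days. Each had an adjusted p of 3.6e-06 or less. The controls of lipl-1 at 3 days, at 2.40, and of msp-45 at 11 days, at 4.29, lay under log2 5, where sizes are uncertain. So did the treated group of dod-3 at 3 days, at 4.60. Levels are not compared between ages, since a joint normalization of both is not stated.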

How the results depend on the processing

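Against control at 11 days, 2624 probe sets were called, and 1403 with no filter on low values, 1657 (886 up, 771 down) with a replicate block, and 1330 to 2204 when 1 array was left out. No pairing by replicate number is stated, so the block is given as 1 more alternative. Against 0.2 mM the 3595 calls became 2184 to 3674 when 1 array was left out, with the 2 lowest counts without 0.2 mM array 3 (2184) or 2 (2290). For the ages the 6879 calls stayed within 1.5 times, at 6402 to 6704 when 1 array was left out and 6476 with a replicate block. The other alternatives kept all 3 counts within 1.5 times. Of 8918 probe sets 927 were called under each of 15 alternatives that tested them (520 up, 407 down). Of 178 called named genes 120 kept their call under every alternative, 58 lost it under at least 1 and none changed sign; most were lost with no filter (49), without control 2 (34) or control 3 (33). Of the 41 named genes not called 5 were called under at least 1. Counts within gene lists moved by over 1.5 times most often without control 2 or control 3; the sulfur and MSP lists did not move so far without any 1 array. With a filter at log2 7, 10 MSP genes were tested and called. Signal over background limits dim genes: 31 of 37 sperm genes and 107 of 147 collagen genes lay under log2 5 on all controls.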

Other observations

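The numbers of the filter show how much of each family could be seen at 11 days. Of 310 F-box genes 51 were tested, of 255 nuclear hormone receptor genes 31 and of 73 cytochrome P450 genes 22. In the receptor list 9 genes fell and 4 rose (median -0.11), but 3 fell without control 2, 5 without control 3 and 2 with a filter at log2 7. Of these 31 genes, 1 was over log2 5 on no treated array. The falls were led by nhr-11 from 6.68 ± 0.06 to 6.07 ± 0.12 (SD, n = 3). Of 10 early embryonic regulators 1 rose, the Wnt gene mom-2 by 0.42 ± 0.07, and 1 fell, the homeobox gene pal-1 by 0.36 ± 0.08, which was not called without control 2. Of 7 metal response genes the metallothionein gene mtl-2 rose by 0.44 ± 0.09 and cdr-2 fell by 0.41 ± 0.09, the latter not called without control 2. Of 19 short-chain dehydrogenase genes, of which 1 was over log2 5 on no treated array, 3 rose and 2 fell. The gene dhs-14 stood at 8.38, 8.30 and 8.29 in controls, 9.94, 9.87 and 10.06 with 0.2 mM and 9.43, 9.33 and 9.34 with 2.0 mM. The 3 pharyngeal muscle genes tested were not called. Of 3 coelomocyte genes aman-1 fell by 0.41 on the log2 scale.

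Among the 9 arrays of 11-day-old worms the first principal component held 58.3% of the variance. It set the 2.0 mM arrays, at up to 20.3, apart from both the controls and the 0.2 mM arrays, which on it lay together between -10.3 and -7.15. The second component (14.8%) set the controls, between 6.35 and 10.1, apart from the 0.2 mM arrays, between -7.69 and -7.09.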
